A study of Mus musculus with 27 samples.

Results

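Expression of 10 genes of the Notch pathway was followed in the cortex of 5xFAD mice treated with vehicle, R33 or R55. They are the receptors Notch1, Notch2, Notch3 and Notch4, the ligands Dll1, Dll4, Jag1 and Jag2, and the target genes Hes5 and Hey1. They were found in the deposited expression table by their symbols in lower case (notch1, notch2, notch3, notch4, dll1, dll4, jag1, jag2, hes5 and hey1), and all 10 of 10 were among its 26264 genes. The rows were picked by symbol and not by a measured value, but the list was chosen with earlier results of these data known.

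Notch receptors are transmembrane proteins that are activated by ligands on a neighbouring cell. Ligand binding exposes the receptor to ADAM metalloproteases and then to gamma-secretase, the same enzyme that releases amyloid beta from App. The freed intracellular domain joins the DNA-binding protein Rbpj in the nucleus and switches on genes of the Hes and Hey families. In the adult brain the pathway is known from blood vessels, where Notch4 and Dll4 mark endothelium and Notch3 marks mural cells, and from astrocytes, where Notch1, Notch2 and Hes5 are found.

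5xFAD mice carry mutant human transgenes of familial Alzheimer's disease driven by the neuronal Thy1 promoter, and all mice here, vehicle controls included, were 5xFAD females of 16 weeks. Each received a microinjection into the cortex of one hemisphere of vehicle, R33 or R55, both compounds being thiophene thioureas given as 10 mM solutions. The vehicle was the same solvent without drug. A small block of cortex was taken from the injected and from the contralateral hemisphere 24 h later, and RNA was sequenced from each block as its own library. The analysis covered 27 libraries of 14 mice, 4 given vehicle, 5 given R33 and 5 given R55, with both hemispheres for 13 mice and the injected hemisphere alone for the R33-treated mouse AE. No uninjected and no wild-type mouse was among them, so the contralateral hemisphere and the vehicle group are the only controls.

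Values are FPKM, counted fragments scaled by gene length and by the library's total of counted fragments. Libraries held 15932196 to 38077026 counted fragments. The library of the injected hemisphere of R33-treated mouse AD stood apart, with a median Pearson correlation with the other libraries of 0.958 against 0.973 to 0.988 for the rest. It also had the highest summed level of 5 fibroblast markers, 76.1 FPKM, and the highest level of Alas2, 8.17 FPKM. Alas2 was the only gene of the red blood cell list above 0. Several values are therefore given with and without mouse AD, though not all of them. Neuronal markers were abundant in every library, the 9 of the list summing to 3170 to 4780 FPKM. Genes of other regions varied: the 4 choroid plexus markers summed to between 4.02 and 1650 FPKM, and the 4 haemoglobin genes of the red blood cell list were listed at 0 throughout. Mouse labels are of 2 kinds, 9 mice with a single letter and 5 mice with a pair of letters, and neither the labels nor the methods say what the difference stands for.

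The promoters of 3 members are shown because the results below turn on them. Hes5 is the classical Rbpj target by which pathway activity is read, and Dll4 and Notch4 are the members with the largest relative difference between the 2 kinds of mouse. The sequences are the 250 bases before the start site in RefSeq, taken from a table of build GRCm38.p6 and placed by exact match at chr4:155045130-155045379 for Hes5, chr2:119156015-119156264 for Dll4 and chr17:34783019-34783268 for Notch4 in GRCm39, all on the plus strand. In GENCODE M39 these genes start inside the windows, at 155045373, 119156170 and 34783220, so the annotations place the start differently. Capitals mark GTGGGAA, the preferred Rbpj site, and AGGAAG, a core bound by ETS factors, searched on both strands with no overlap between the marked stretches.
Hes5: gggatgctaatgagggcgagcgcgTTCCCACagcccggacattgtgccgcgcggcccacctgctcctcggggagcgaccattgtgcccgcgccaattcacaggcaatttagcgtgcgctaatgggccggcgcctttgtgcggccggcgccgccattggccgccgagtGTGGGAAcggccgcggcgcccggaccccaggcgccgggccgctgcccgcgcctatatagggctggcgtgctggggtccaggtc
Dll4: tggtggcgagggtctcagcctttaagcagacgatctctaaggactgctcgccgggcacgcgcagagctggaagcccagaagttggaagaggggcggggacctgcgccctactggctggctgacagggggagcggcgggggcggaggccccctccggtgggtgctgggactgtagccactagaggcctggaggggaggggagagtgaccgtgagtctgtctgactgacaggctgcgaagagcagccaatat
Notch4: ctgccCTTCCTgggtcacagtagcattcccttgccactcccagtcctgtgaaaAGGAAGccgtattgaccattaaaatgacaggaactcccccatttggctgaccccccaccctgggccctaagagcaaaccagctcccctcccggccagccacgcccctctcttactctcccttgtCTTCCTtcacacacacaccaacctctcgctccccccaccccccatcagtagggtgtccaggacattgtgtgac

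The table held promoters of 9 of the 10 members. Hes5 was the only one of these with GTGGGAA, which it held on both strands, starting 226 and 83 bases before the start site. Of all 32851 promoters in the table, 5.42% held that motif. Notch4 held AGGAAG at 3 places and 1 of the 2 Dll1 promoters held it once, a motif found in 29.5% of all promoters, while the Dll4 window held neither. A match of letters describes the sequence and shows no binding.

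The receptors lie on 3 chromosomes in GRCm39 (GENCODE M39): Notch1 on chromosome 2 (26347915 to 26406675), Notch2 on chromosome 3 (97920800 to 98057677), and Notch3 (32339794 to 32385893) and Notch4 (34783220 to 34807477) on chromosome 17. Among the ligands, Dll4 (119156170 to 119166443) and Jag1 (136923373 to 136958693) share chromosome 2 with Notch1, Dll1 is on chromosome 17 (15587276 to 15597134) and Jag2 on chromosome 12 (112871421 to 112893437). Hes5 is a short gene on chromosome 4 (155045373 to 155046828), and Hey1 is on chromosome 3 (8726956 to 8732385).

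Per length, the target Hey1 was the most abundant member in all 27 libraries, with 23.4 ± 1.58 FPKM (mean ± SD over 14 mice), and its level varied least, with a coefficient of variation over mice of 6.76%. Hey1 encodes a bHLH repressor. The other target, Hes5, followed with 8.50 ± 1.97 FPKM, and the ligand Jag2 with 7.23 ± 0.898 FPKM. These neighbours were not separated, since Hes5 was above Jag2 in 17 of 27 libraries. The receptors were lower, with 3.02 ± 0.594 FPKM for Notch1, 2.18 ± 0.403 FPKM for Notch2, 2.15 ± 0.380 FPKM for Notch3 and 0.996 ± 0.264 FPKM for Notch4. Notch2 and Notch3 could not be ordered, Notch2 being the higher in 13 of 27 libraries. The remaining ligands were Jag1 at 1.44 ± 0.342 FPKM, Dll1 at 1.23 ± 0.340 FPKM and Dll4 at 0.612 ± 0.238 FPKM. Dll4, the ligand of sprouting endothelium, was the least abundant and the most variable, with a coefficient of variation of 38.9%, and rested on 22 to 127 fragments per library. The filter on low values was set at 1 FPKM and read each gene's average across all 27 libraries, which was 1.01 FPKM for Notch4 and 0.623 FPKM for Dll4. Thus 9 of the 10 members passed it, Notch4 narrowly, and Dll4 was tested in the same fit without that filter.

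**Figure D1:**
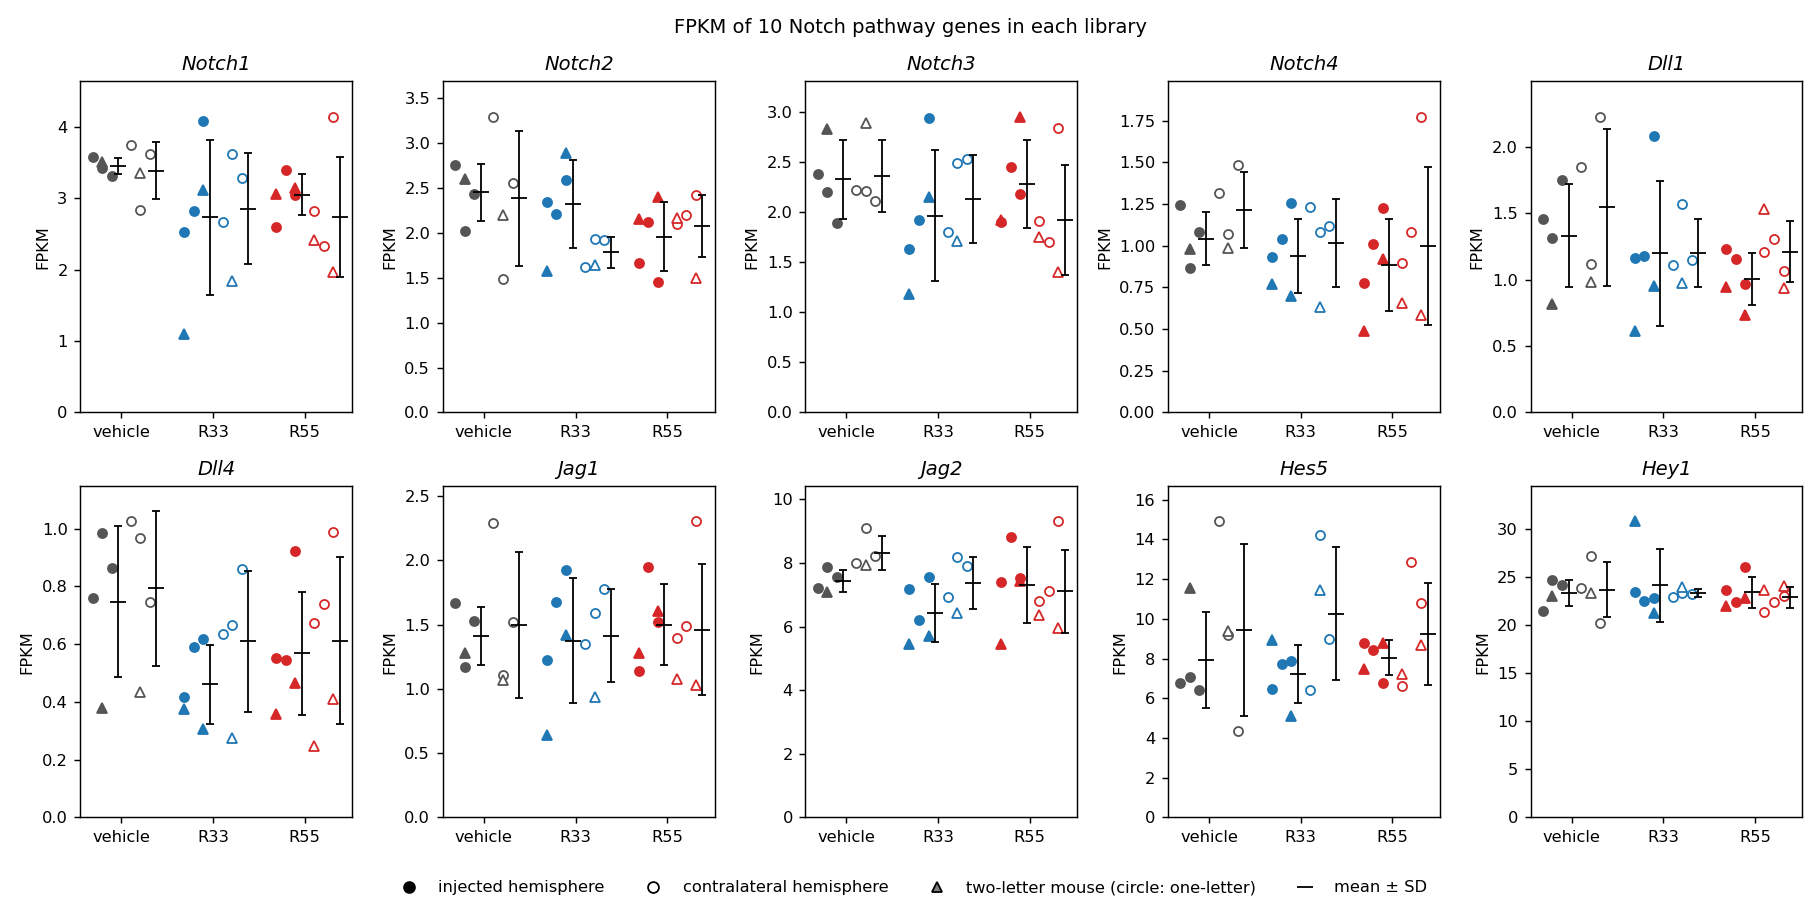
FPKM (linear axes from 0) of the 10 members in each of the 27 libraries by treatment, with filled symbols for the injected and open symbols for the contralateral hemisphere, triangles for mice with a two-letter label and circles for the others, and bars for the mean ± SD of each group. Over both hemispheres, the treatments overlap in every panel. Some groups split by hemisphere do not, as for Jag2 under vehicle, with 7.09 to 7.88 FPKM injected and 7.94 to 9.08 FPKM contralateral. The R33-treated mouse AD has the lowest Notch1 value, 1.11 FPKM, and Dll4 is below 0.5 FPKM in all triangles.

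Whether R55 changed the pathway was asked by comparing R55-treated with vehicle-treated mice over both hemispheres. No member passed the test, neither receptor, ligand nor target. The fitted log₂ fold changes of FPKM + 1 ran from -0.20 for Notch1 to 0.04 for Hes5, and the smallest adjusted p-value was 0.604 (limma with Benjamini-Hochberg adjustment). Of all 12976 genes tested, 0.00771% were called, which is 1 gene. At an unadjusted p under 0.05 there were 0 members, against 8.45% of all genes tested.

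All 4 receptors had negative estimates under R55. Notch1, the main receptor of astrocytes and neural progenitors, had 3.66, 3.13, 3.46 and 3.43 FPKM in the vehicle-treated mice J, L, M and AH, each the mean of both hemispheres. The R55-treated mice P, Q, R, AA and AB had 2.71, 2.86, 3.59, 2.74 and 2.55 FPKM. Thus 4 of 5 R55-treated mice lay below the lowest vehicle-treated mouse and mouse R lay among the vehicle values, so that the groups overlapped. The fitted change of Notch1 was -0.20 (95% confidence interval -0.45 to 0.06, SE 0.12). Those of the other receptors were -0.17 for Notch2 (-0.37 to 0.02), -0.12 for Notch3 (-0.33 to 0.09) and -0.15 for Notch4 (-0.34 to 0.05). Once each library's trend of level on transcript length was removed, the estimates were -0.04 for Notch1, 0.0021 for Notch2, -0.00059 for Notch3 and -0.07 for Notch4. The receptors are the longest transcripts among the members, with 9489, 10506, 8054 and 6604 bases.

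The ligands gave no common direction under R55. Dll1, an activating ligand of neural progenitors, had a log₂ fold change of -0.19 (-0.41 to 0.03) and Dll4 of -0.16 (-0.35 to 0.04). Jag2 had -0.12 (-0.28 to 0.04), with mouse means of 7.51 to 8.48 FPKM under vehicle and 5.91 to 8.41 FPKM under R55. Jag1, the Jagged ligand of vessels and astrocytes, had 0.01 (-0.21 to 0.24). All these intervals include 0. The targets, which lie downstream of the receptors, had the estimates nearest to 0 apart from Jag1. Hes5 was at 8.69 ± 2.52 FPKM under vehicle (n = 4 mice) and 8.64 ± 1.28 FPKM under R55 (n = 5), and Hey1 at 23.5 ± 1.67 and 23.1 ± 0.876 FPKM. The interval of Hey1, -0.14 to 0.10, was the narrowest of the 10 and that of Hes5, -0.30 to 0.39, the widest. In no member did all R55-treated mice lie below all vehicle-treated mice, which occurred in 1.43% of the tested genes. The median log₂ fold change of the 10 members was -0.14 and that of all tested genes was 0.03.

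R33 was compared with vehicle in the same fit, so both comparisons share the 4 vehicle-treated mice. Again 0 members were called, with a smallest adjusted p-value of 0.834 (limma), as was 0% of all genes tested. At an unadjusted p under 0.05 there were 3 members, Notch1, Dll4 and Jag2, all with negative estimates, against 5.87% of all genes. None of these 3 is a changed gene by the test.

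Notch1 had 2.60, 3.22, 3.68, 1.47 and 3.11 FPKM in the R33-treated mice K, N, O, AD and AE. Mouse AD was the lowest of the 14 mice and mouse O the highest. The fitted log₂ fold change was -0.26 (-0.52 to -0.0047), and it was -0.10 without mouse AD.

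Jag2 had 7.05, 7.20, 7.74, 5.95 and 5.70 FPKM in these mice, of which 4 of 5 were below the lowest vehicle-treated mouse. Its log₂ fold change was -0.18 (-0.35 to -0.012) and -0.13 without AD. Dll4 had 0.526, 0.630, 0.739, 0.324 and 0.308 FPKM, against 0.892, 0.976, 0.805 and 0.407 FPKM under vehicle, and a log₂ fold change of -0.21 (-0.41 to -0.0066), or -0.15 without AD. The 3 lowest of these 9 mice for Dll4, which were AD, AE and the vehicle-treated AH, all have a two-letter label. With the kind of label as a covariate the changes were -0.25 for Notch1, -0.16 for Jag2 and -0.18 for Dll4. Within the one-letter mice, 3 against 3, they were -0.09, -0.11 and -0.22, and within the two-letter mice, 2 against 1, they were -0.48, -0.32 and -0.10. When the hemispheres of a mouse were treated as correlated, Dll4 alone of the 3 members kept an unadjusted p under 0.05, and with 1 value per mouse 0 did.

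The other 7 members had unadjusted intervals that include 0 under R33, with estimates from -0.15 for Notch3 to 0.02 for Hes5. Without mouse AD the sign changed for Jag1 (-0.04 to 0.07), Hey1 (0.01 to -0.04) and Hes5 (0.02 to -0.06). The estimate of Dll1 went from -0.14 to -0.06. Hey1 was at 23.5 ± 2.26 FPKM (n = 5). In no member were all R33-treated mice below all vehicle-treated mice, against 0.378% of tested genes. Endothelial markers had a median log₂ fold change of -0.19 under R33 and -0.12 under R55 with 0 of 9 past an unadjusted p under 0.05 in either comparison, and their part in the estimates of Dll4 and Notch4 was not tested.

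The 2 compounds, given at the same concentration and time, were compared directly for each of the 10 members. No difference passed the test, and the share of all genes called was 0% (smallest adjusted p for a member 0.9998, limma). At an unadjusted p under 0.05 there were 0 members and 1.15% of all genes. The estimates for R55 against R33 ran from -0.05 for Dll1 (-0.27 to 0.16) to 0.07 for Notch1 (-0.18 to 0.31). The closest bound was obtained for Hey1, -0.15 to 0.08, and the widest interval was that of Hes5, -0.31 to 0.36. Differences inside these intervals could not be resolved with 5 mice against 5.

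**Figure D2:**
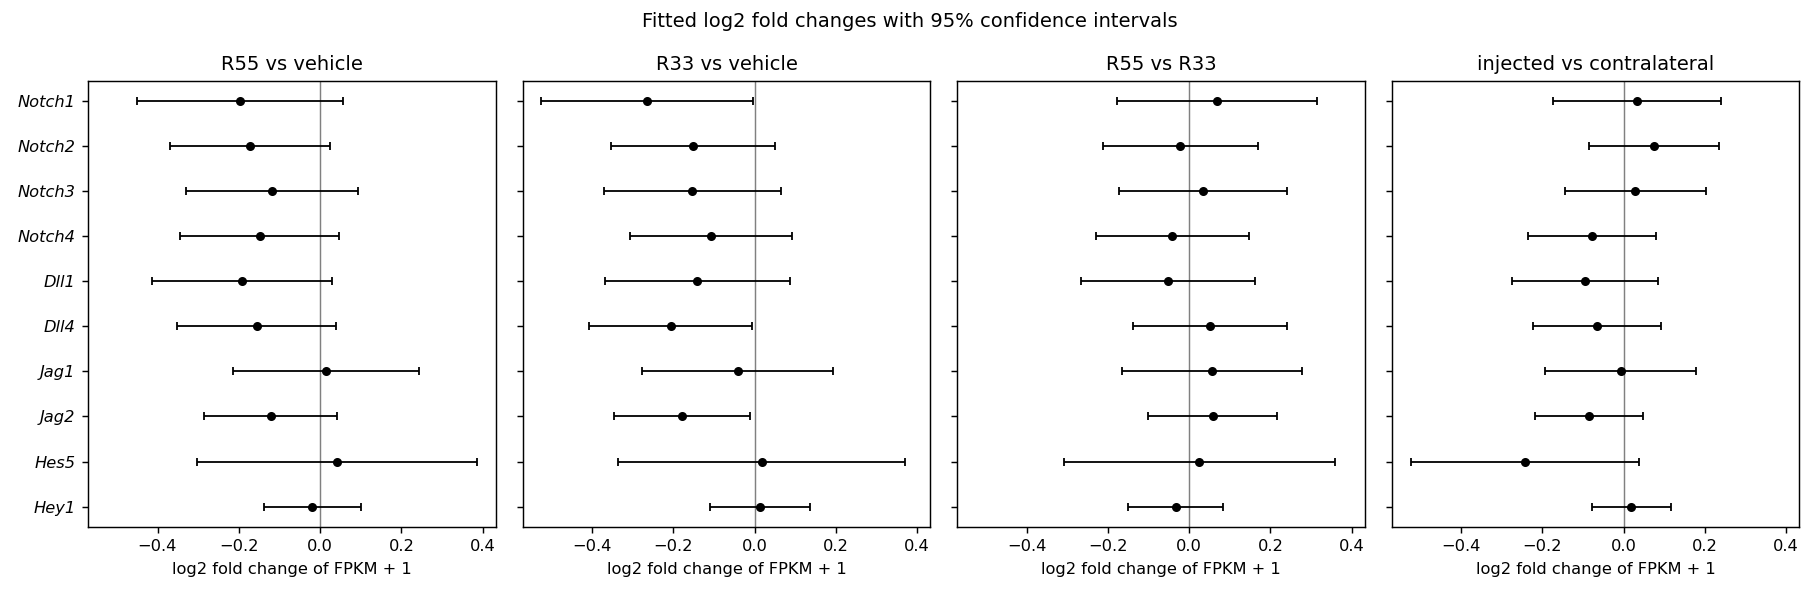
Fitted log₂ fold changes of FPKM + 1 (points) with 95% confidence intervals (bars) for the 10 members in 4 comparisons of 27 libraries. The intervals of R55 against vehicle all include 0, and those of Notch1, Dll4 and Jag2 under R33 end just below 0, at -0.0047, -0.0066 and -0.012, with adjusted p-values of at least 0.834.

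The hemispheres were compared over vehicle-, R33- and R55-treated mice together. The injected blocks of R33- and R55-treated mice had also received a compound, so injection itself was not isolated. No member was called between the injected and the contralateral hemisphere, and 0% of all genes were (limma, smallest adjusted p for a member 0.9999). At an unadjusted p under 0.05 there were 0 members, with 3.47% of all genes. Hes5, the target most variable between hemispheres, had the estimate farthest from 0, -0.24 (-0.52 to 0.04), or -0.20 with the hemispheres of a mouse paired. It was lower in the injected hemisphere in 7 of 13 mice, and its difference ran from -1.04 in vehicle-treated mouse J, with 6.74 FPKM injected and 14.9 FPKM contralateral, to 0.47 in vehicle-treated mouse M. For Hes5 the hemispheres of the vehicle group therefore differed in both directions.

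Among the vascular members, Notch4 was lower in the injected hemisphere in 10 of 13 mice and in 4 of 4 vehicle-treated mice, with a mean difference of -0.06 ± 0.16 (SD, log₂ scale). Jag2 was lower in 9 of 13 mice and in 4 of 4 vehicle-treated mice, with -0.07 ± 0.20. Over the 13 mice both differences were smaller than their SD. In the vehicle-treated mice J, L, M and AH, Jag2 differed by -0.13, -0.18, -0.11 and -0.14. Notch4 differed by -0.05, -0.15, -0.26 and -0.0055 in these mice, and the vehicle group was not tested alone. Dll1 was also lower in 9 of 13 mice, with -0.09 ± 0.23. Other members of vessels differed: Jag1 was higher in 8 of 13 mice and in 3 of 4 vehicle-treated mice. Dll4 was lower in 8 of 13 mice and higher in 2 of 4 vehicle-treated mice. The share of all genes lower in 4 of 4 vehicle-treated mice was not counted. The receptors Notch1 and Notch2 were each higher in 6 of 13 mice and Notch3 in 5 of 13, with mean differences of 0.02 to 0.05. The largest single difference of a receptor was in Notch3, 0.72 in R55-treated mouse AB. Gfap, the astrocyte gene of gliosis, had a log₂ fold change of 0.54 between hemispheres at an unadjusted p under 0.05 that did not pass the adjustment. Astrocyte markers as a list had a median of -0.0043.

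**Figure D3:**
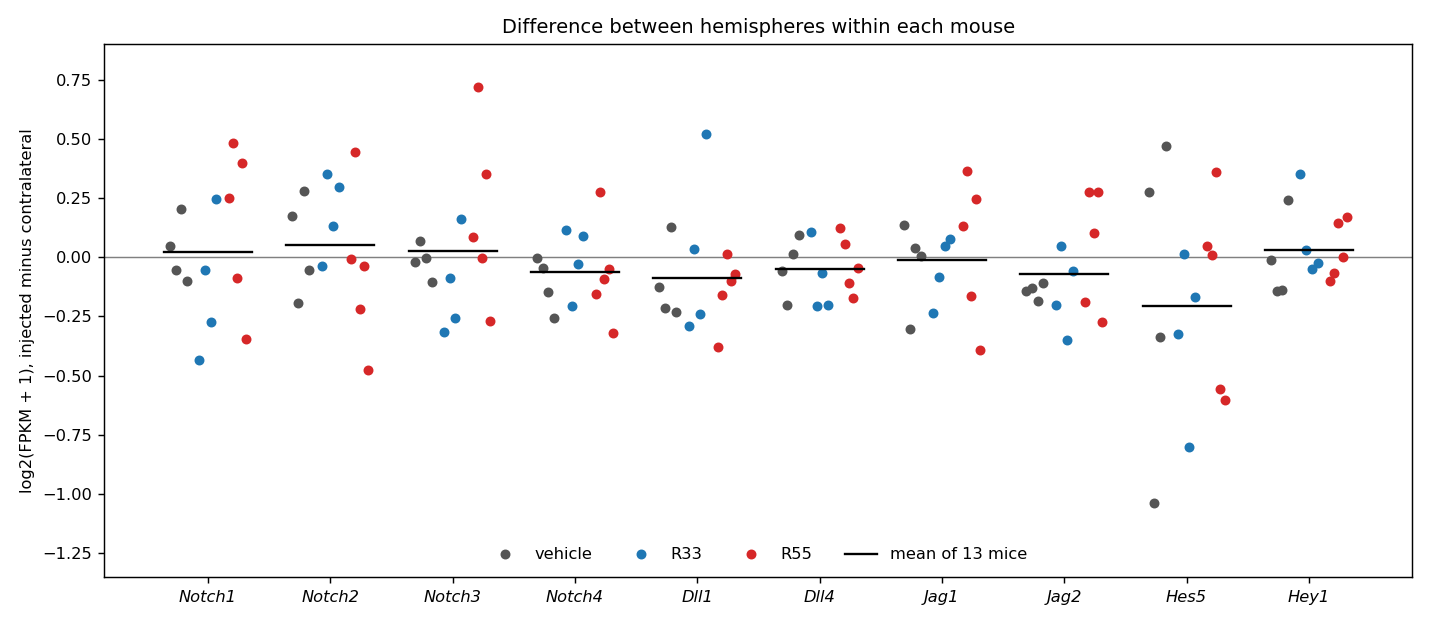
Difference in log2(FPKM + 1) between the injected and the contralateral hemisphere (y axis) for each member and each of the 13 mice with both, coloured by treatment, with lines at the mean of 13 mice. Differences lie on both sides of 0 for every member, and Hes5 has the widest range, -1.04 to 0.47.

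Whether a compound's effect depended on the hemisphere was tested by an interaction. No member was called for R55, where the interaction was called in 0% of genes and reached an unadjusted p under 0.05 in 1.84% of genes and 0 members. The same was found for R33, with 0% and 0.378% of genes and 0 members (limma). The estimates are wide, as for Hes5 under R33, -0.27 (-0.99 to 0.46). Jag2 under R55 had 0.18 (-0.15 to 0.51) and Notch3 under R55 0.19 (-0.24 to 0.62).

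The wider pathway was described with 46 further genes, of which 43 were tested. None was called for R55, R33, R55 against R33, or hemisphere. Under R55, 20 had positive and 23 negative estimates, with a median of -0.0017. Against 8.45% of all genes tested, 6 of these 43 reached an unadjusted p under 0.05. Among them were Snw1, a nuclear cofactor (0.21), Psenen, the smallest gamma-secretase subunit (0.19), Hes6, an inhibitor of Hes1 (0.21), and the corepressors Spen (-0.21) and Ncor1 (-0.17). The other 8 proteases of the list, among them Adam10 and Adam17, did not reach it. Under R33, 15 had positive and 28 negative estimates, with a median of -0.03. Against 5.87% of all genes tested, 4 of the 43 reached an unadjusted p under 0.05. These included Snw1 (0.15), Spen (-0.22) and Rfng (-0.09), a fringe glycosyltransferase of Notch receptors. Both lists of estimates rest on the same vehicle-treated mice.

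Of the remaining comparisons, 3 had 1 such gene each. The shares of all genes tested were 1.15% for R55 against R33, 3.47% for hemisphere and 1.84% for the interaction of R55 with hemisphere. Hes1, a target of the receptors, had -0.20 for R55 against R33, Dlk2, a Delta-like protein, had -0.20 for the injected hemisphere, and Dtx3, a Deltex-family ligase, had -0.25 for the interaction of R55 with hemisphere. The other targets on the list, such as Hey2, Heyl and Nrarp, reached an unadjusted p under 0.05 in none of these comparisons.

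The kind of mouse label was the one factor with which members moved past the test, in a comparison added after the data were seen. The 5 two-letter mice, 1 treated with vehicle, 2 with R33 and 2 with R55, were set against the 9 one-letter mice, 3 of each treatment, with treatment and hemisphere as covariates. The 5 members Notch4, Dll1, Dll4, Jag1 and Jag2 were lower in two-letter mice, out of 19.1% of all genes called in either direction. When the hemispheres of a mouse were modelled as correlated, 3 members were called, Notch4, Dll4 and Jag2, with 10.4% of all genes. The same 3 were called with 1 value per mouse, with 5.71% of all genes, and without mouse AD, with 12.4%.

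Dll4 had the largest difference. Its mouse means ran from 0.304 to 0.437 FPKM in the 5 two-letter mice and from 0.526 to 0.976 FPKM in the 9 one-letter mice, so that the groups did not overlap, as in 1.84% of the tested genes. Its mean was 0.473 times that of the one-letter mice, and the log₂ fold change of FPKM + 1 was -0.35 (SE 0.05, adjusted p = 4.24e-05, limma). With a pseudocount of 0.1 in place of 1 it was -0.84, since 1 is large beside the level of this gene.

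Notch4, a receptor of endothelium, had 0.571 to 0.982 FPKM in two-letter mice and 0.838 to 1.5 FPKM in one-letter mice, and 4 of 5 two-letter mice were below all one-letter mice. Its log₂ fold change was -0.28 (limma, adjusted p = 0.00492, and 0.0453 with 1 value per mouse). Jag2 was at 6.35 ± 0.749 FPKM against 7.71 ± 0.530 FPKM, a change of -0.22 (limma, adjusted p = 0.00769, and 0.0332 with 1 value per mouse). Dll1, with -0.27, and Jag1, with -0.27, had adjusted p-values of 0.0199 and 0.0218, which rose to 0.0538 and 0.0583 with the hemispheres of a mouse treated as correlated. Notch1 had -0.23 (adjusted p = 0.0944) and -0.08 without mouse AD. Notch2, Notch3 and both targets had estimates between -0.05 and 0.06 that did not pass the test, with Hes5 at 8.36 ± 2.21 against 8.58 ± 1.96 FPKM.

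The endothelial markers moved with the mouse label. All 9 of 9 were called lower in two-letter mice, with a median log₂ fold change of -0.84, among them Cldn5, a tight junction protein (-0.99), and Flt1, a VEGF receptor (-1.38). Their summed level ran from 45.0 to 67.7 FPKM in the 9 libraries of two-letter mice and from 64.4 to 165 FPKM in the 18 others, and the mean in two-letter mice was 0.50 times that in the others. Of the 9 mural markers 1 was lower, Rgs5, and 1 was higher, Anpep. Neuronal markers had 0 of 9 called, while 6 of 7 microglial and 3 of 5 fibroblast markers were higher. In blocks of tissue, fewer cells of a type and less RNA per cell cannot be told apart, and the part of the endothelial markers in the difference of Dll4, Notch4 and Jag2 was not tested. What the labels stand for cannot be told apart from these differences.

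Of the 43 further pathway genes tested, 5 were called in that comparison, or 11.6%, a smaller share than the 19.1% of all genes. Lower in two-letter mice were Dner, a neuronal Notch ligand (-0.32), and Aph1b, a gamma-secretase subunit (-0.20). Higher were the Deltex ligases Dtx2 (0.18) and Dtx4 (0.22) and Hes6 (0.22). With the hemispheres of a mouse treated as correlated, the 3 genes Aph1b, Dtx2 and Dtx4 were called, and with 1 value per mouse or without mouse AD Dtx4 alone was.

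**Figure D4:**
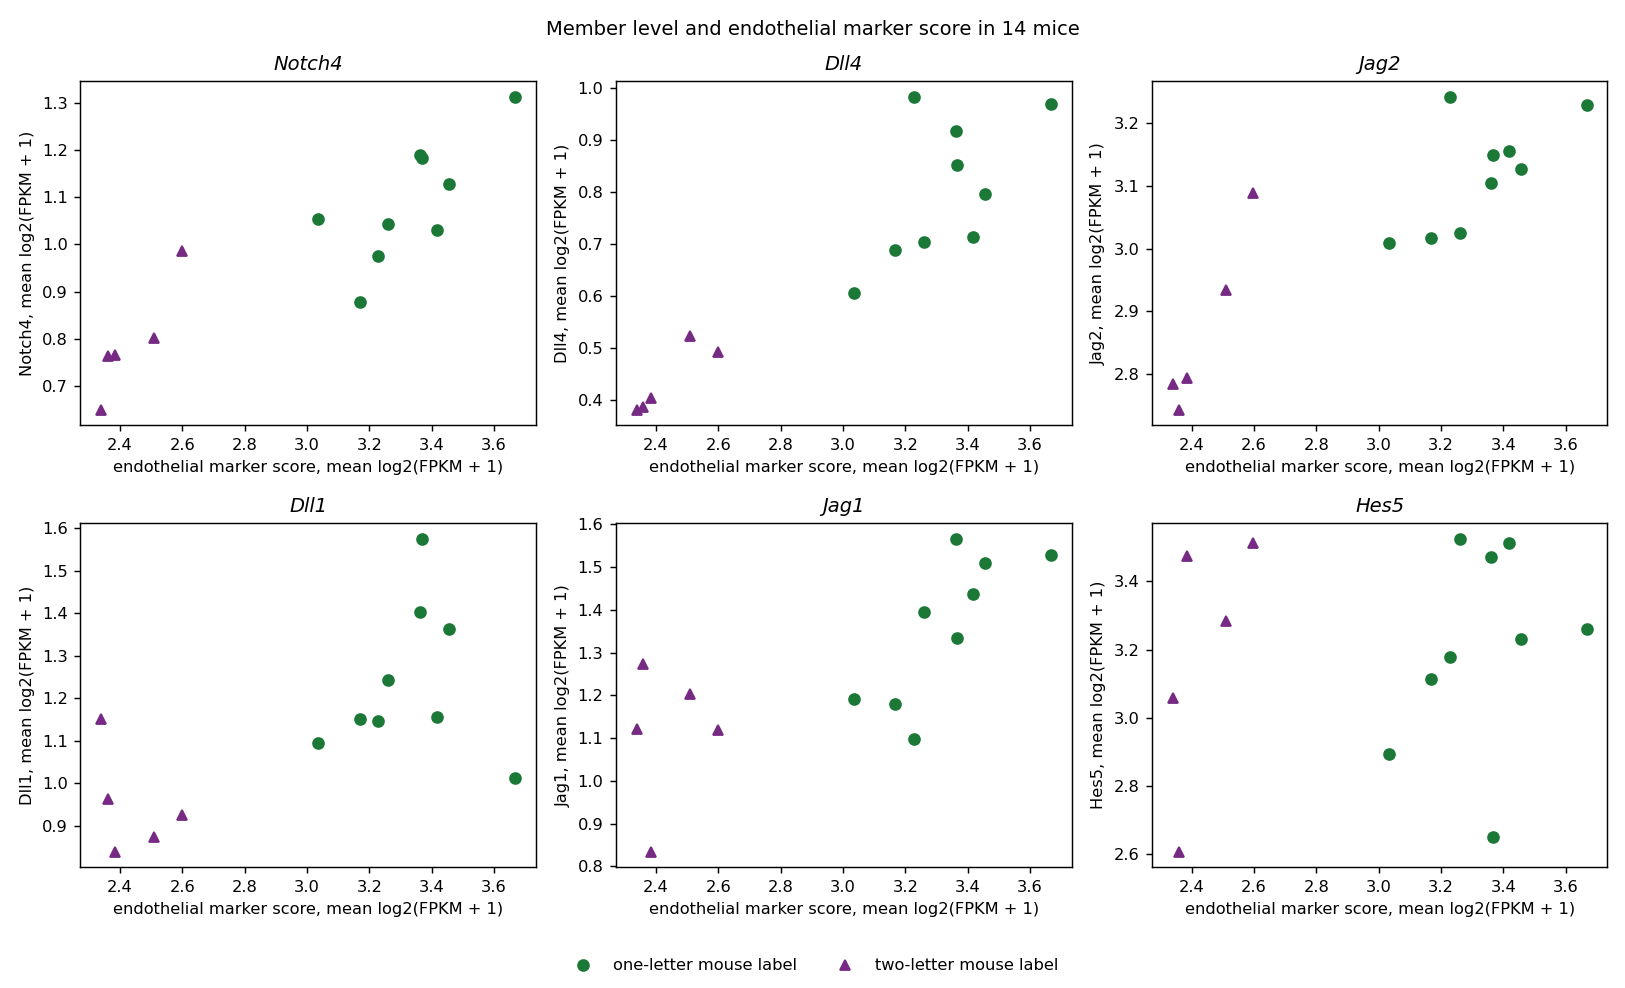
Mean log2(FPKM + 1) of 6 members (y axis) against the mean log2(FPKM + 1) of 9 endothelial markers (x axis) in 14 mice, with triangles for two-letter and circles for one-letter mouse labels. Two-letter mice have scores of 2.34 to 2.60 and the others 3.03 to 3.67, and Dll4 separates along with the score while Hes5 spreads over the same range in both.

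How the members vary from mouse to mouse was described by 40 relations, of each member with the mean log₂ level of endothelial, mural, astrocyte and neuronal markers. Since the endothelial score separates the 2 kinds of mouse, no pooled value is given for it and the 9 one-letter mice were used. In these, Notch4 had r = 0.743 and rho = 0.600 with the endothelial score (exact permutation p = 0.0226 and 0.0968, adjusted over 40 p = 0.147 and 0.258), Notch3 r = 0.762 and rho = 0.717 (exact p = 0.0180 and 0.0369, adjusted 0.144 and 0.184) and Dll4 r = 0.596 and rho = 0.50 (exact p = 0.0890 and 0.178, adjusted 0.274 and 0.339). Jag1 had r = 0.767, Notch1 0.721 and Jag2 0.662 with this score, while Notch2, Dll1, Hes5 and Hey1 had 0.0611 to 0.289. None of the endothelial relations passed the adjustment. Without the 2 one-letter mice farthest from the median score, r fell to 0.0508 for Dll4 and 0.308 for Jag2. It was then 0.561 for Notch3, 0.566 for Notch1, 0.746 for Notch4 and 0.784 for Jag1.

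A pair of relations passed it for r. Jag1, a ligand found in astrocytes as well as vessels, was higher where the astrocyte score was higher in one-letter mice, r = 0.946 and rho = 0.950 (exact permutation p = 8.82e-05 and 0.000353, adjusted over 40 p = 0.00353 and 0.0141, n = 9), and r was 0.939 without the 2 mice farthest from the median score. Over all 14 mice it was r = 0.483 and rho = 0.600 (permutation p = 0.0807 and 0.0262, adjusted 0.271 and 0.150), which did not pass the adjustment. With the other scores Jag1 had r = 0.767 (endothelial), 0.615 (mural) and -0.758 (neuronal) in one-letter mice, none past the adjustment. Jag1 was also lower in two-letter mice, as given above, and these 5 mice are too few for a correlation of their own.

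Notch2, a receptor of astrocytes and progenitors, was lower where the neuronal score was higher. In one-letter mice r was -0.941 and rho -0.867 (exact permutation p = 0.000350 and 0.00451, adjusted 0.00700 and 0.0902, n = 9). Over 14 mice r was -0.758 and rho -0.749 (permutation p = 0.00168 and 0.00281, adjusted 0.0168 and 0.0281), and r was -0.555 without the 2 farthest mice, J and L. FPKM are shares of 1 total per library, so members and scores are not free to vary apart.

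**Figure D5:**
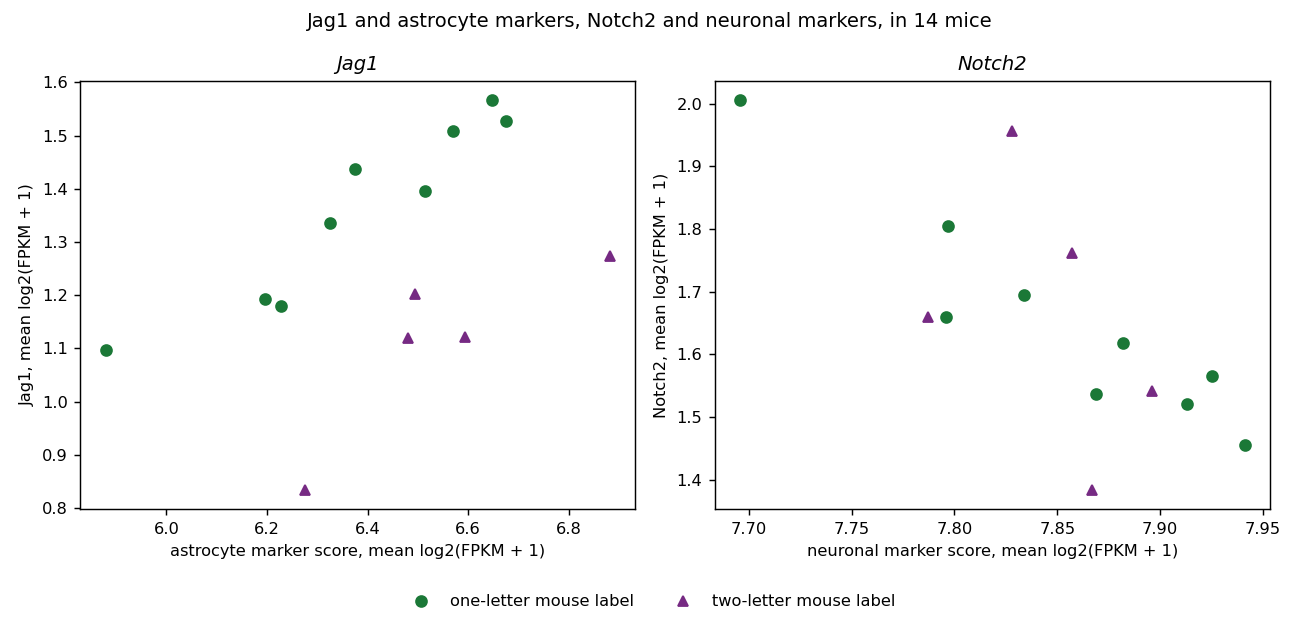
Mean log2(FPKM + 1) of Jag1 against 9 astrocyte markers (left) and of Notch2 against 9 neuronal markers (right) in 14 mice, with triangles for two-letter and circles for one-letter labels. Jag1 follows the astrocyte score among the 9 circles (r = 0.946), and Notch2 falls with the neuronal score in all 14 mice (r = -0.758).

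The genes whose level was most like that of each member, after the means of the 6 treatment and hemisphere groups were removed, were ranked by Pearson's r over the 27 libraries. These libraries share mice and mouse labels, and r is given as a description. The difference between the kinds of mouse label was not removed and enters r. Notch4, Dll4, Jag2 and all 9 endothelial markers were lower in two-letter mice, as given above. Mouse AD is included in these values. Notch4 was nearest to Pecam1 (0.923) and Eng (0.917), both endothelial surface proteins, and to She (0.915). Dll4 was nearest to Ushbp1 (0.903), Cldn5 (0.882) and Nos3 (0.881), the endothelial nitric oxide synthase. Jag2 was nearest to Ltbp4 (0.910), Agrn (0.864) and Ptprb (0.849), an endothelial phosphatase.

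Notch3, the receptor of mural cells, was nearest to Lrp1 (0.888), Pdgfrb (0.855) and Cspg4 (0.844), of which Pdgfrb and Cspg4 are found in pericytes. With the mural score Notch3 had r = 0.440 in one-letter mice (exact permutation p = 0.235, adjusted 0.470). Over 14 mice r was 0.462 (permutation p = 0.0961, adjusted 0.275). Without the 2 mice farthest from the median score these were 0.858 and 0.709. Notch1 was nearest to Abca1 (0.948), Egfr (0.946) and Fat1 (0.939), and Jag1 to Epas1 (0.885), Egfr (0.856) and Kctd12b (0.850). Notch2 was nearest to Vcam1 (0.884), Lpcat3 (0.845) and Loxl3 (0.838), and Dll1 to Ndst4 (0.883), Zfp608 (0.882) and Lrrn1 (0.879). The targets had neighbours of other kinds, Med16 (0.838), Arhgap33 (0.828) and Tmem164 (0.794) for Hes5, and Gnas (0.865), Cops7a (0.818) and Smpd4 (0.807) for Hey1.

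Between members, Notch1 varied most closely with Jag1 (r = 0.844) and Notch3 (0.827), and Notch4 with Jag2 (0.750), Jag1 (0.748) and Dll4 (0.727). Hey1 had r = -0.713 with Notch2, -0.620 with Notch1, -0.398 with Notch3 and -0.172 with Notch4. Without both libraries of mouse AD these were -0.638, -0.286, -0.114 and -0.0748, so that only the value for Notch2 stayed near its size over all libraries. In the injected hemisphere of mouse AD, Hey1 was at 30.7 FPKM, the highest of 27 libraries, and Notch1 at 1.11 FPKM, the lowest. Without AD the values of Notch1 were 0.770 with Jag1 and 0.795 with Notch3, and those of Notch4 were 0.726 with Jag2, 0.756 with Jag1 and 0.681 with Dll4.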

How the data were processed

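The authors prepared stranded mRNA libraries from cortex blocks, ran them paired-end on a NextSeq 2000, used HISAT2 with build GRCm39 for alignment and deposited FPKM for 26264 gene symbols in 32 libraries. The counting tool and its annotation are not given in the sources used here. Of these libraries 27 were used and 5 were not used here. Leftover header lines (32) were dropped. All values (100.0%) were whole multiples of 1 fragment within 0.01, so fragments and gene lengths could be recovered.

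The 12976 genes averaging at least 1 FPKM were tested with limma 3.58.1 in R 4.3.3 on log2(FPKM + 1), with treatment and hemisphere as factors, an intensity trend, Benjamini-Hochberg adjustment and calls at an adjusted p under 0.05. A fold change on that scale understates the change of low genes. Libraries of a mouse count as separate in that fit. The alternatives were the mouse as a block (statmod 1.5.0), 1 value per mouse, a fit restricted to the compared treatments, one hemisphere at a time, the kind of mouse label as covariate, removal of the length trend, median-of-ratios size factors, limma voom on fragments, no intensity trend, no filter, a pseudocount of 0.1, and leaving out each mouse. Hemispheres carrying one mouse label come from the same animal: their deviations from group means had a mean correlation of 0.394 over 13 pairs (-0.0787 to 0.648), against -0.106 over 48 pairs of different mice.

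Marker scores are mean log2 values per mouse, related to members by two-sided permutation tests (100000 permutations for 14 mice, exact for 9), adjusted over 40 relations. Named are all members, up to 6 pathway genes per comparison with the smallest unadjusted p under 0.05, and the 3 genes most like each member. Genes named in the label comparison and Gfap were chosen after their values were seen. The members and lists were chosen with earlier results of these data known. Some single genes are not reported here. The fit was tested on simulated data. The other steps ran in Python 3.11.15 (scipy 1.17.1, numpy 2.4.6, matplotlib 3.10.9, pandas 2.3.3).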

Additional observations from a re-analysis of the deposited data

Results flagged for a closer look

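Of 60 groups of 4 or 5 libraries tested for a library far from its group, 3 had one, and chance alone flags about 1 group in 20. Hey1 was at 30.7 FPKM in the injected hemisphere of R33-treated mouse AD, against 21.2 to 23.4 FPKM in the other 4 libraries of its group. Hes5 was at 11.5 FPKM in the injected hemisphere of vehicle-treated mouse AH, against 6.39 to 7.05 FPKM in the others. Notch3 was at 2.89 FPKM in the contralateral hemisphere of that mouse, against 2.11 to 2.22 FPKM. Mouse AH is the 1 vehicle-treated mouse with a two-letter label.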

How the results depend on the processing

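No member was called for R55, R33, R55 against R33, hemisphere or their interactions under any alternative run, the replicate block by mouse included. In the label comparison, 5 members were called, 3 with the mouse as replicate block, 3 with 1 value per mouse, and 3 to 5 when each mouse was left out, 3 without AD. Removal of the length trend left 4. Without mouse AD the unadjusted p-values under R33 were 0.298 for Notch1, 0.134 for Jag2 and 0.157 for Dll4 (limma). Under R55, without the R33-treated mouse AD, Notch1 had an unadjusted p of 0.0303 (adjusted 0.342, limma) with the same estimate, -0.20, since the spread is shared. With limma voom on recovered fragments the R33 estimates were -0.38 for Notch1, -0.56 for Dll4 and -0.21 for Jag2, none called. Depth limits Dll4 most, at 22 to 127 fragments per library. The p-values of the main fit set a difference against the spread between libraries, with those of a mouse counted as separate. Only the fits with the mouse as block or with 1 value per mouse take the mouse into account.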
